A study of Bos taurus with 2 samples.

Results

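PAEP and GLYCAM1 encode a pair of proteins of cow whey, and their UMI counts (unique molecular identifiers, each standing for 1 captured transcript) were read in single cells of the mammary gland. They are 2 of the 27270 genes in both count matrices (PAEP ENSBTAG00000014678, GLYCAM1 ENSBTAG00000013417), taken by name and set beside the 4 casein genes CSN1S1, CSN1S2, CSN2 and CSN3. The tissue came from Holstein dairy cattle, with 1 library from the gland of a lactating adult and 1 from the gland of a newborn. The labels give no treatment or genetic change for either library, and they do not say how many animals each came from. With 1 library per stage there is no replicate check and no p-value is given. The stage of the gland, the animal and the preparation of its cells cannot be told apart.

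Milk proteins fall into caseins, which assemble into micelles, and whey proteins, which stay dissolved. In ruminants PAEP encodes beta-lactoglobulin, a lipocalin that binds small hydrophobic molecules and is the main whey protein of cow milk. GLYCAM1 encodes a mucin-like glycoprotein, called lactophorin or PP3 in milk, and in rodents the same gene is known as a selectin ligand of lymph node vessels. Milk protein genes are transcribed by alveolar secretory cells during lactation under prolactin and its transcription factor STAT5, and their transcripts are among the most abundant of the lactating gland.

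The adult library held 15897 cell barcodes with 85388618 UMIs, and the newborn library 13772 barcodes with 65597671 UMIs. After removal of barcodes with under 300 genes or over 20% mitochondrial UMIs, 14691 adult and 13710 newborn barcodes were kept, with a median of 2860 and 4591 UMIs. The libraries shared 57 barcode sequences. Kept barcodes were sorted into classes by raw UMIs of 9 marker lists that hold no milk protein gene. A class needed at least 3 UMIs from at least 2 of its genes, with no other list above 50% of that sum. This gave 1362 epithelial barcodes in the adult and 0 of 13710 in the newborn library, which allows a share of up to 0.0219%. Epithelial barcodes were parted by 9 genes of milk fat secretion and synthesis such as BTN1A1 and XDH. At least 10 UMIs from at least 3 of these genes put 521 barcodes in a secretory gate, and the other 841 are called low-secretory. The 10663 non-epithelial adult barcodes were mostly T or NK cell-like (6351) and endothelial-like (2820), and 2666 were left unassigned. KRT8, a luminal keratin, stood at 1930 CPM (counts per 1000000 UMIs) in low-secretory, 411 CPM in secretory-gated and 19.8 CPM in non-epithelial barcodes. PTPRC, the pan-leukocyte CD45 gene, stood at 4.14 CPM in secretory-gated and 254 CPM in non-epithelial barcodes. BTN1A1 stood at 251 CPM in secretory-gated, 7.49 CPM in low-secretory and 7.76 CPM in non-epithelial barcodes. XDH did not peak in its own gate. Its 341 CPM in secretory-gated barcodes exceeded the low-secretory 142 CPM. It lay below the levels of the fibroblast-like (394) and endothelial-like (368) classes. The level of a gene that helped to set a gate cannot check that gate. Intervals are exact 95% intervals that cover counting error only, not differences between animals.

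PAEP was counted 3307763 times in kept barcodes of the adult and 0 times in the newborn library. In CPM it stood at 39239 (39197 to 39281) in the adult, while 0 UMIs in the newborn allow up to 0.0458 CPM by a floor of 3 UMIs. The adult library thus held PAEP at a level at least 857488-fold higher than the newborn one. GLYCAM1 was counted 991072 times in the adult and 20 times in the newborn library. It stood at 11757 CPM (11734 to 11780) and 0.305 CPM (0.186 to 0.471), a ratio of 38538 (24953 to 63092). The caseins CSN1S1, CSN1S2 and CSN3 had 0 UMIs in the newborn, and CSN2 and LALBA, the gene of alpha-lactalbumin, had 1 UMI each. GLYCAM1 was the most often counted of these 7 milk protein genes in the newborn library, whereas PAEP was counted 3.34 times as often as GLYCAM1 in the adult library. All 7 milk protein genes were over 4-fold higher in the adult and 0 were lower. Of 15442 genes with at least 20 UMIs in both libraries together, 16.2% were higher and 8.48% lower by this measure. As no newborn barcode passed the epithelial gate, an absence of secretory cells and lower transcription per cell cannot be told apart, and a loss of such cells during dissociation was not tested.

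The 20 newborn GLYCAM1 UMIs lay in 18 barcodes, 2 of which held 2 UMIs each. All 18 were fibroblast-like, in a library where 90.9% of kept barcodes were fibroblast-like. They held between 3727 and 8270 UMIs, with a median of 5388 against 4797 over all newborn fibroblast-like barcodes. The share of fibroblast-like barcodes with GLYCAM1 was 0.144% (0.0856 to 0.228). The 18 barcodes carried 1 UMI of the 13 epithelial marker genes, out of 197 in the newborn library, and none of their sequences occurred in the adult library. The adult library had 3.34 PAEP UMIs and 4.45 CSN2 UMIs for each GLYCAM1 UMI, and these barcodes had 0 of PAEP. Where these UMIs came from was not tested.

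In the adult library PAEP and GLYCAM1 were concentrated in secretory-gated barcodes. These were 3.28% of all adult barcodes and held 89.1% of PAEP UMIs, 89.7% of GLYCAM1 UMIs and 90.4% of CSN2 UMIs. PAEP stood at 116379 CPM (116247 to 116512) and GLYCAM1 at 35053 CPM (34980 to 35125) in them, so the members made up more than 1 in 10 of all their UMIs. In low-secretory barcodes PAEP stood at 5780 CPM and GLYCAM1 at 1735 CPM. In non-epithelial barcodes they stood at 4649 and 1277 CPM. PAEP was thus 20.1-fold (20.0 to 20.3) and GLYCAM1 20.2-fold (19.9 to 20.5) higher in secretory-gated than in low-secretory barcodes. Without the 28 milk-rich low-secretory barcodes, those with at least 1000 casein UMIs, the folds were 59.0 for PAEP and 62.8 for GLYCAM1. With all barcodes, the caseins CSN1S1, CSN1S2 and CSN2 were 20.6-fold to 21.6-fold higher and CSN3, kappa-casein, which coats the micelle, 11.9-fold. All 7 milk protein genes passed 4-fold here, where 0.823% of 11907 genes were at least 4-fold higher and 11.9% at least 4-fold lower. Against non-epithelial barcodes PAEP was 25.0-fold (24.9 to 25.1) and GLYCAM1 27.4-fold (27.2 to 27.7) higher, where 5.35% of 13863 genes were at least 4-fold higher and 30.2% at least 4-fold lower. Milk protein UMIs were 58.0% of the UMIs in secretory-gated barcodes and so lowered the CPM of every other gene there. Scaled to UMIs outside the 7 milk genes, PAEP stood at 277143 CPM and GLYCAM1 at 83474 CPM in the gate, and the folds over low-secretory barcodes were 46.5 and 46.7.

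Per barcode, the secretory gate held a milk-rich and a milk-poor population. PAEP ranged from 10 to 48460 UMIs per barcode with a median of 2856, and GLYCAM1 from 2 to 15541 with a median of 823. The 7 milk genes took under 10% of UMIs in 153 of the 521 barcodes, between 10% and 50% in 28, and 50% or more in 340. PAEP counts were higher where the counts of the secretory gene list were. In the 150 barcodes with 10 to 19 UMIs of that list its median was 31 UMIs, in those with 20 to 49 it was 1500, and in those with 200 or more it was 15717. The GLYCAM1 medians in the same bins were 10, 293 and 5103. The bin of 10 to 19, at a median depth of 23510 UMIs, thus lay nearer to the median of 17 PAEP UMIs in non-epithelial barcodes than to the next bin. Median depth was 24046 UMIs in the bin of 20 to 49 and 104357 in that of 200 or more. The median share of the 7 milk genes in these bins was 0.836%, 60.1% and 78.4%, from the lowest to the highest. The part of depth in the rise of the counts was not tested. With the gate set on BTN1A1 and XDH alone, a choice made after the data had been seen, 336 barcodes remained, at 129493 CPM of PAEP and 39081 CPM of GLYCAM1.

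**Figure D1:**
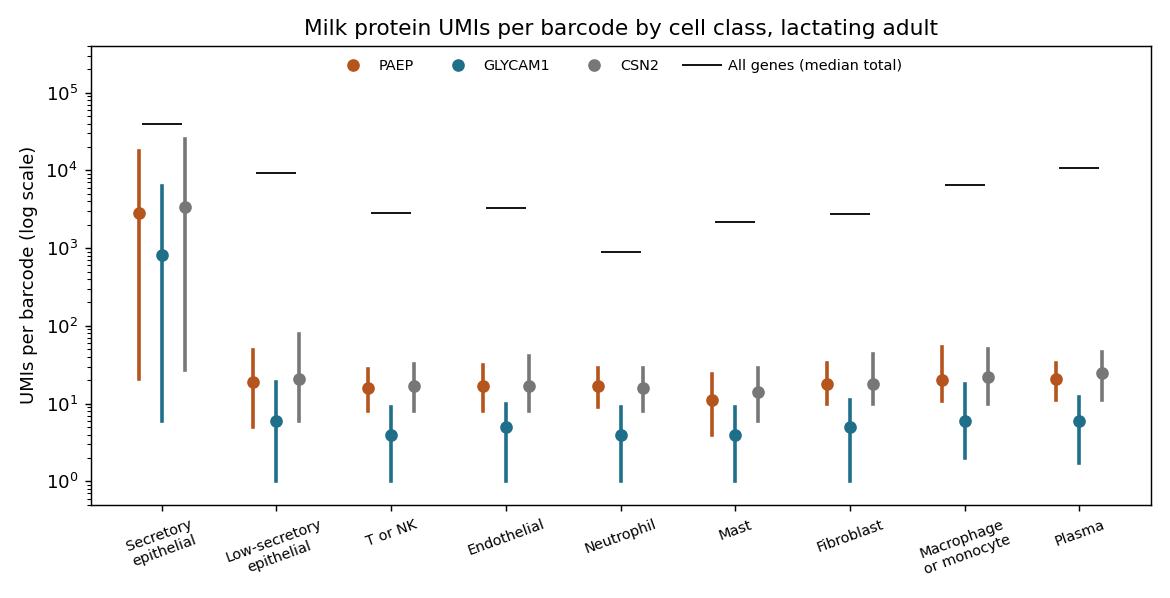
UMIs per barcode (log scale) of PAEP, GLYCAM1 and CSN2 in each cell class of the lactating adult library; points are medians, bars run from the 5th to the 95th percentile of barcodes, and black dashes mark the median total UMIs. PAEP medians lie between 11 and 21 in every non-epithelial class shown although total depth runs from 899 to 10699, and reach 2856 in secretory-gated barcodes.

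Almost every adult barcode carried PAEP, whatever its class, at a nearly fixed number of UMIs. At least 1 PAEP UMI was found in 99.95% of non-epithelial barcodes, and at least 1 GLYCAM1 UMI in 97.8%. The median PAEP count was 16 in T or NK cell-like, 17 in endothelial-like, 17 in neutrophil-like, 18 in fibroblast-like, 20 in macrophage or monocyte-like, 21 in plasma cell-like and 11 in mast cell-like barcodes. GLYCAM1 medians ran from 4 to 6 in the same 7 classes. The classes overlapped widely, with T or NK cell-like barcodes between 8 and 28 PAEP UMIs from the 5th to the 95th percentile and fibroblast-like ones between 9.95 and 33.1. Median total UMIs differed 11.9-fold, from 899 in neutrophil-like to 10699 in plasma cell-like barcodes, whereas median PAEP counts differed 1.91-fold. PAEP accordingly stood at 14921 CPM in the shallowest class, neutrophil-like, and at 1809 CPM in the deepest, plasma cell-like; between them CPM did not strictly follow depth. GLYCAM1 stood at 3827 and 539 CPM in the same classes. Since every class carried both genes at a like count, counts near these were not read as expression by a class. Where these UMIs came from was not tested. Low-secretory epithelial barcodes lay at the same count, with a median of 19 PAEP and 6 GLYCAM1 UMIs at a median depth of 9268 UMIs. No member was 4-fold higher in low-secretory than in non-epithelial barcodes, at 1.24-fold for PAEP and 1.36-fold for GLYCAM1, where 8.2% of 13834 genes were. These pooled values rest on 28 of the 841 barcodes with at least 1000 casein UMIs, which held 34577 of the 51717 PAEP UMIs. Without them, and without the milk-rich barcodes of the non-epithelial classes, the direction turned in CPM, but not in the median count against T or NK cell-like barcodes. The low-secretory barcodes left held a median of 19 PAEP UMIs at a median depth of 9368 UMIs. T or NK cell-like barcodes under the same limit held 16 at 2835 UMIs. PAEP then stood at 1974 CPM in low-secretory and 4409 CPM in non-epithelial barcodes, a ratio of 0.448, and GLYCAM1 at 559 and 1215 CPM, a ratio of 0.460.

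The same held within the T or NK cell-like and the endothelial-like class. T or NK cell-like barcodes were ordered by total UMIs and parted into 4 equal sets, whose median depth rose from 1738 to 4739 UMIs. The median PAEP count moved from 15 to 18 and the median GLYCAM1 count from 4 to 5. The median PAEP level went down from 8610 to 3483 CPM over those sets. In endothelial-like barcodes depth rose from 1085 to 11209 UMIs, the PAEP count from 16 to 20 and the GLYCAM1 count from 4 to 6. The PAEP level there went from 14672 to 1635 CPM. The Spearman correlation of PAEP count with total UMIs was 0.21 in T or NK cell-like and 0.29 in endothelial-like barcodes. Among non-epithelial classes with at least 50 barcodes it ran from 0.15 in neutrophil-like to 0.55 in plasma cell-like ones. In low-secretory barcodes the median PAEP count moved from 16 to 24 as depth rose from 1621 to 20326 UMIs. Endothelial-like barcodes held a median of 5 GLYCAM1 UMIs, with 97.7% positive, against 4 and 97.9% in T or NK cell-like ones, although the gene is known in vessels of other species. A few non-epithelial barcodes stood far above their class. Of 10663, 10 held 200 or more PAEP UMIs, with up to 3494, and these 10 carried 5.76% of all non-epithelial PAEP and 5.41% of GLYCAM1. Thinned to 1000 UMIs per barcode, 96.4% (96.1 to 96.8) of non-epithelial barcodes still showed PAEP, after 886 shallower ones were left out. The share was 86.2% (82.9 to 89.0) in secretory-gated barcodes, of which 0 were left out. As this order goes against the CPM, none was read from it.

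**Figure D2:**
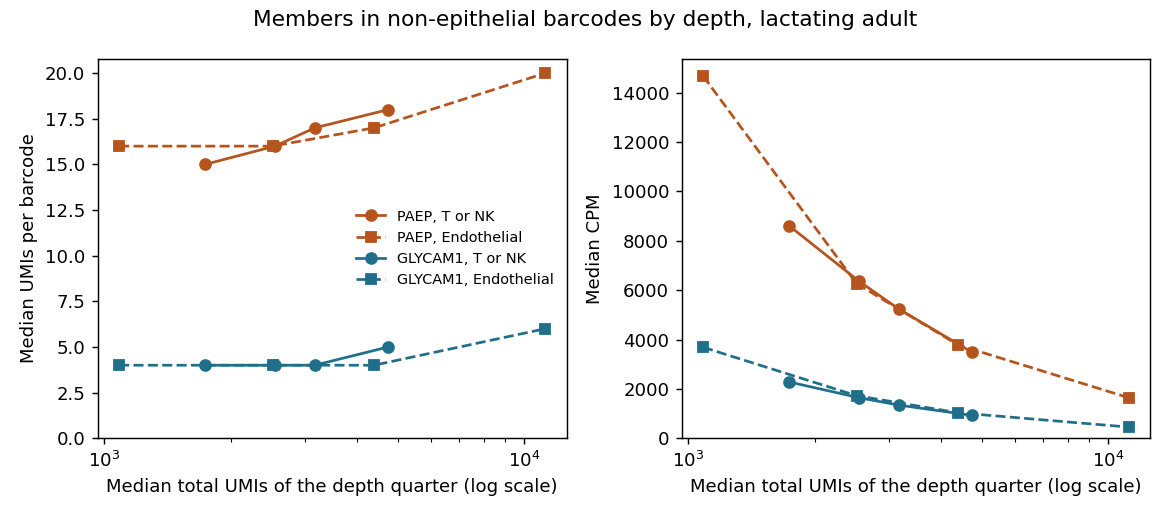
Median UMIs per barcode (left) and median CPM (right) of PAEP and GLYCAM1 in 4 sets of T or NK cell-like and endothelial-like barcodes ordered by total UMIs (log scale), lactating adult library. Counts stay between 15 and 20 for PAEP and 4 and 6 for GLYCAM1, while CPM falls as depth rises.

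Relative to the caseins, the members kept similar proportions in all classes, with small shifts. In secretory-gated barcodes there were 27.5 PAEP UMIs (27.5 to 27.6) and 8.29 GLYCAM1 UMIs (8.27 to 8.31) per 100 casein UMIs. In non-epithelial barcodes there were 32.6 (32.4 to 32.7) and 8.95 (8.87 to 9.02). Across the 7 non-epithelial classes with at least 50 barcodes, PAEP ranged from 27.6 in mast cell-like to 36.8 in neutrophil-like barcodes. GLYCAM1 ranged from 8.64 in plasma cell-like to 10.6 in macrophage or monocyte-like barcodes. The median over single barcodes gave PAEP at 24.4 in the secretory gate and 34.0 outside the epithelium. In the 367 gated barcodes with at least 1000 casein UMIs the median was 27.5. In the 154 gated ones below that limit, pooled PAEP was 16.5 per 100 casein UMIs, and CSN3 made up 46.4 of these 100. Part of the wider gap in medians thus lies in the casein sum of those 154. The shift in PAEP between the secretory gate and the other cells is larger than counting error, though smaller than the spread between single secretory barcodes given below. LALBA was shifted further, at 1.40 per 100 casein UMIs in secretory-gated and 2.18 in T or NK cell-like barcodes.

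**Figure D3:**
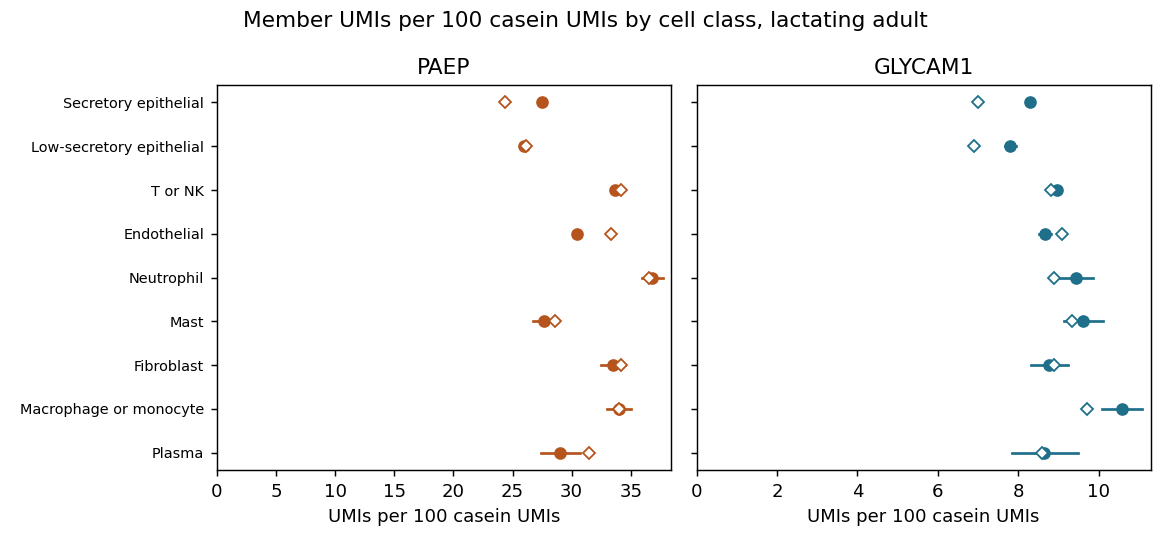
UMIs of PAEP (left) and GLYCAM1 (right) per 100 casein UMIs by class of the lactating adult library; filled points are pooled sums with exact 95% intervals and open diamonds are medians over barcodes. PAEP lies at 27.5 in secretory-gated barcodes and between 27.6 and 36.8 in the non-epithelial classes, and GLYCAM1 at 8.29 and between 8.64 and 10.6.

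In milk-poor epithelial barcodes the members behaved unlike kappa-casein. Secretory-gated barcodes with under 1000 casein UMIs numbered 154, at a median depth of 35846 UMIs. Their CSN3 count was 202 per 100 CSN2 UMIs (196 to 207), against 34.7 in 361 milk-rich barcodes of the gate, those with at least 1000 casein UMIs and at least 10 of PAEP per 100 of them, and 35.1 (34.7 to 35.5) in T or NK cell-like barcodes under the same limit. Low-secretory barcodes under this limit held 120 CSN3 UMIs per 100 CSN2 UMIs (117 to 122). PAEP stood at 71.9 (69.5 to 74.5) per 100 CSN2 UMIs in the 154 barcodes and at 83.9 (82.3 to 85.7) in the low-secretory ones. GLYCAM1 stood at 24.6 (23.4 to 25.9) and 23.8 (23.0 to 24.5). T or NK cell-like barcodes under the same limit held 92.9 PAEP UMIs (92.1 to 93.7) and 25.0 of GLYCAM1 (24.7 to 25.3). PAEP was thus lower in both epithelial sets than in this class. Over all barcodes of the 7 non-epithelial classes, CSN3 ranged from 30.8 to 43.7, PAEP from 73.1 to 103 and GLYCAM1 from 23.6 to 28.6 per 100 CSN2 UMIs. CSN3 thus stood above the range of the non-epithelial classes in both sets of epithelial barcodes. GLYCAM1 lay within its range in both, and PAEP within its own range in the low-secretory set. In the 154 barcodes PAEP, at 71.9, lay just below its lowest class, mast cell-like, at 73.1, a value that its interval includes. That interval also includes the 74.1 of the 361 milk-rich barcodes. Among low-secretory barcodes, 28 held 1000 or more casein UMIs, and in these PAEP was 75.1 and GLYCAM1 23.2 per 100 CSN2 UMIs, near the 74.1 and 22.3 of the 361 milk-rich barcodes.

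**Figure D4:**
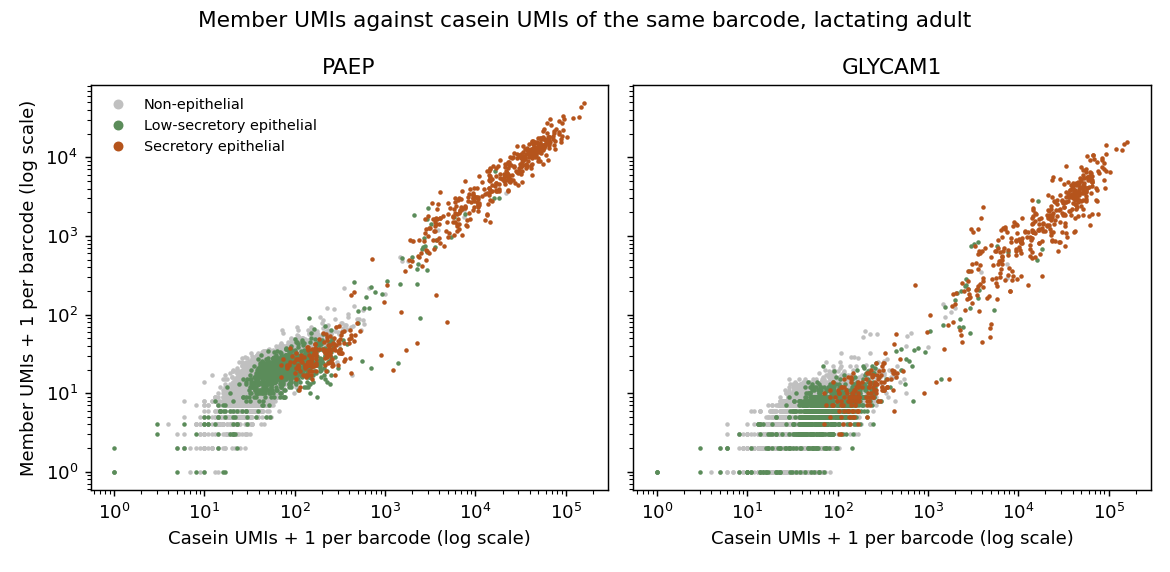
PAEP (left) and GLYCAM1 (right) UMIs against casein UMIs of the same barcode (both + 1, log scales) in the lactating adult library; each point is a barcode, grey for non-epithelial, green for low-secretory and brown for secretory-gated. Most non-epithelial and low-secretory points form a cloud around 17 to 19 PAEP UMIs, and milk-rich secretory points run up to 48460.

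Among milk-rich secretory barcodes the proportion of whey to casein transcripts varied far more than counting allows. The 367 gated barcodes with at least 1000 casein UMIs, a limit set after the data had been seen, held a median of 27.5 PAEP UMIs per 100 casein UMIs. The 5th and 95th percentiles were 16.4 and 46.9, and the extremes 1.54 and 89.8. GLYCAM1 had a median of 7.76, percentiles of 2.72 and 16.2, and extremes of 0.815 and 57.3. The coefficient of variation was 35.9% for PAEP and 65.4% for GLYCAM1, where the median counting error of a barcode was 1.45% and 2.60%. The caseins, as shares of their own sum, had values from 15.1% for CSN1S1 to 32.7% for CSN1S2 and 33.1% for CSN3. Each casein is part of that sum, which narrows its variation by construction, so these values are not of 1 measure with those of the members. LALBA, which is outside the sum as the members are, varied more, at 96.3%. PAEP UMIs outnumbered those of CSN2 in 83 of the 367 barcodes and those of every casein gene in 19. GLYCAM1 outnumbered PAEP in 1.

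The members varied together across these barcodes. The Spearman correlation of PAEP and GLYCAM1, each per casein UMI, was 0.62 over 367 barcodes. Since both ratios share a denominator and a library, this is a description only. With PAEP divided by CSN1S1 and GLYCAM1 by CSN2 it was 0.57. PAEP per casein correlated with LALBA per casein at 0.11, and GLYCAM1 with LALBA at 0.41, with the same denominator. With LALBA divided by CSN1S1 and GLYCAM1 by CSN2, the correlation of LALBA and GLYCAM1 was 0.21. Of the 367 barcodes, 130 were above the median for both members and 131 at or below it for both, while 53 were above for PAEP alone and 53 for GLYCAM1 alone. The number of GLYCAM1 UMIs per 100 PAEP UMIs had a median of 28.6, with 14.0 and 53.0 as the 5th and 95th percentiles. Neither ratio followed depth, with a correlation to total UMIs of -0.071 for PAEP and 0.056 for GLYCAM1.

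**Figure D5:**
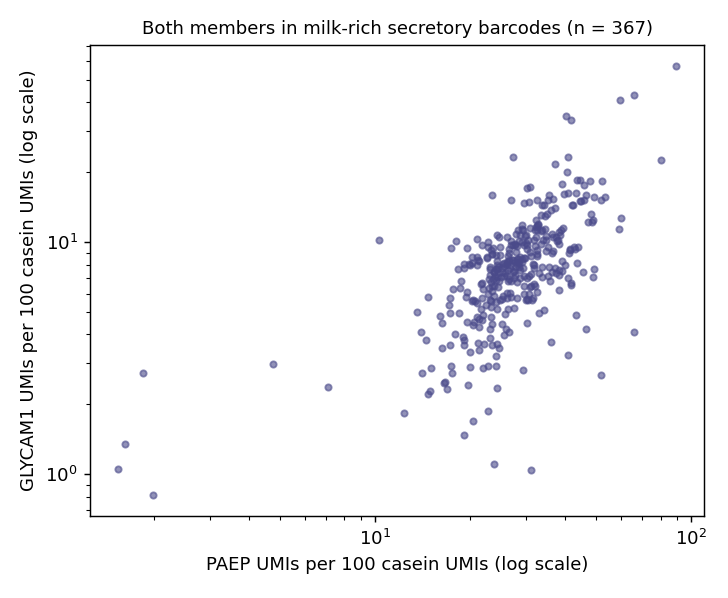
PAEP against GLYCAM1, both as UMIs per 100 casein UMIs (log scales), in the 367 secretory-gated barcodes with at least 1000 casein UMIs; each point is a barcode. Most points lie between 16.4 and 46.9 for PAEP and 2.72 and 16.2 for GLYCAM1, and 6 lie below 10 for PAEP.

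In 6 of the 367 barcodes PAEP was below 10 per 100 casein UMIs. They held between 1232 and 4897 casein UMIs but only 19 to 177 of PAEP and 13 to 111 of GLYCAM1, and their 6 LALBA counts were at most 5. Their caseins were also unlike those of the other 361 barcodes, with 217 CSN3 and 243 CSN1S1 UMIs per 100 CSN2 UMIs, against 34.7 and 117. PAEP stood at 18.1 per 100 CSN2 UMIs in them against 74.1, but low PAEP was the basis of the choice, so this contrast is no separate result. GLYCAM1, which did not set the choice but varied together with PAEP, stood at 11.9 against 22.3. Their median depth was 19018 UMIs against 44791. These barcodes were singled out after their values were seen and their number is small.

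Across secretory-gated barcodes, with the 7 milk protein genes left out of the ranking, the genes most like PAEP and GLYCAM1 were the same 5. The members' r to each other was 0.99, and r to CSN1S1 was 0.99 for PAEP and 0.98 for GLYCAM1. Likeness was measured by Pearson's r of log2 values scaled to 10000 UMIs outside the milk genes, among 7915 genes with a symbol and a UMI in at least 10% of the 521 barcodes. HSTN, the histatherin gene that lies next to CSN2 in the RefSeq annotation of ARS-UCD2.0, came first, with r of 0.97 to PAEP and 0.97 to GLYCAM1. FABP3, a fatty acid binding protein, CRISP3, a secreted cysteine-rich protein, BTN1A1, the butyrophilin of the milk fat globule membrane, and LPO, the milk peroxidase, followed with r from 0.86 to 0.92. FABP3 and BTN1A1 were used to set the gate. The lowest r belonged to APOE, S100A13, S100A14, CYP11A1 and ADIRF, from -0.88 to -0.91. APOE encodes an apolipoprotein, CYP11A1 the enzyme that starts steroid synthesis and both S100 genes calcium-binding proteins. The r to CSN2 was close to these values, at 0.96 for HSTN and -0.90 for APOE. Over the 367 milk-rich barcodes HSTN came first among genes outside the milk list as well, with r of 0.79 to PAEP and 0.84 to GLYCAM1, beside 0.77 to CSN2. FABP3 and LPO followed it for both members, while CRISP3 and BTN1A1 were not among the 5 highest for either. LPL was among them for both members, CIDEA for PAEP alone and DNAJC12 for GLYCAM1 alone, so the 5 were not the same there. APOE, S100A14 and ADIRF were not among the 5 lowest over the 367 barcodes. The members' own r was 0.90, and r to CSN2 was 0.88 for PAEP and 0.84 for GLYCAM1.

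LTF, the gene of the iron-binding defence protein lactoferrin, had a lower r with GLYCAM1 than with PAEP. Its r was -0.33 with PAEP and -0.51 with GLYCAM1 over the 367 barcodes, the largest difference in that direction among 6452 genes. Over all 521 barcodes LTF led as well, at -0.29 and -0.35. When the 367 barcodes were parted into 4 equal sets by LTF, the median GLYCAM1 went from 9.89 per 100 casein UMIs in the lowest to 4.84 in the highest set. PAEP went from 30.9 to 24.8, and LALBA from 1.49 to 0.46. GLYCAM1 per 100 PAEP UMIs went from 33.1 to 20.5, with median total UMIs of 32725 and 50783 in those sets. In the other direction the leading genes were RPLP1, RPS3A and RPLP0, which encode ribosomal proteins. RPLP1 had r of 0.15 with PAEP and 0.33 with GLYCAM1, a difference of the same size as that of LTF. In the lowest and highest set by RPLP1, GLYCAM1 stood at 5.39 and 10.1 per 100 casein UMIs, and PAEP at 23.1 and 32.4, with median total UMIs of 23472 and 29486. The part of depth in these differences was not tested.

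Genes of other whey and milk defence proteins were mostly not confined to secretory-gated barcodes. The gate also held the 153 barcodes with under 10% of UMIs from the 7 milk genes. Of 22 genes listed, 21 were found by symbol, and 19 had at least 20 UMIs in the secretory-gated and low-secretory barcodes together. Of the 19, 3 were at least 4-fold higher in the secretory gate, 4 were lower and 12 lay between, with a median log2 ratio of -1.15, against -1.35 for all 11907 genes, of which 0.823% were higher and 11.9% lower. Scaled to UMIs outside the milk genes, 4 were higher and 0 lower, against 1.76% and 0.857% of all genes, and the medians were 0.06 and -0.14. The 3 were LPO at 199 against 8.61 CPM, FOLR1, the folate receptor that occurs in milk as folate-binding protein, at 38.7 against 2.57 CPM, and MUC15, a mucin of the fat globule membrane, at 92.1 against 7.49 CPM. The gene added by that scaling was PIGR, which carries IgA into milk, at 6.62-fold. The 4 lower ones on all UMIs were LYZ and PGLYRP1, which encode enzymes or binders of bacterial walls, CLU, which encodes the chaperone clusterin, and QSOX1, a sulfhydryl oxidase. LTF stood at 5471 CPM in the secretory gate and 10047 CPM in low-secretory barcodes. SPP1, which encodes osteopontin, stood at 5524 and 10116 CPM. Outside the milk genes their direction turned, to ratios of 1.26 for LTF and 1.26 for SPP1. On all UMIs LCN2, a siderophore-binding lipocalin related to beta-lactoglobulin, stood at 1669 and 5142 CPM, and PIGR at 266 and 92.9 CPM. Against non-epithelial barcodes, where LTF was at 171 CPM and LCN2 at 44.2 CPM, 10 of 20 measured genes were at least 4-fold higher in the secretory gate and 3 were lower, where 5.35% and 30.2% of all genes were. In low-secretory over non-epithelial barcodes 9 of the 20 were higher and 2 lower, where 8.2% and 11.5% of all genes were.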

How the data were processed

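Single-cell suspensions of mammary gland from 1 lactating adult and 1 newborn library were sequenced with the 3' kit of 10x Genomics, V3 chemistry, per the labels' protocols. The authors deposited raw counts of UMIs for each gene in each barcode. Cell Ranger 3.1.0 is the tool that the submitters' processing notes name. Genome build, annotation and cell-calling settings: not given in the sources used here. For that reason positions in the genome are left out. Cattle are known to carry a beta-lactoglobulin pseudogene; how reads shared with it were counted is unknown, and PAEP counts are uncertain in that respect. UMIs of a 3' kit count transcript ends and do not scale with length.

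Barcodes with at least 300 genes and at most 20% of UMIs from 13 mitochondrial protein genes were kept. Classes were gated on raw UMIs of 9 lineage lists and 1 secretory list. No doublet caller was used for the main values, since Scrublet (scanpy 1.11.5) marked 0 adult and 400 newborn barcodes by its own threshold. As an alternative the highest scores were removed up to 0.8% per 1000 barcodes, which took 1727 adult and 1504 newborn barcodes. Sums of UMIs have exact Poisson, ratios exact conditional binomial and shares Clopper-Pearson intervals at 95%, and a count of 0 has a floor of 3 UMIs. Folds between summed classes were called at 4-fold among genes with at least 20 UMIs (prior count 0.5). Fold calls and correlations were tested on simulated data. The members and lists were chosen with earlier results of these data known. Genes were named as the 5 highest and lowest by Pearson's r with each member over secretory-gated barcodes, log2(value + 1), and the 5 with the largest difference of r in each direction, of which not all are reported here; the sets of 367 and 6 barcodes were defined after the data had been seen. Software was Python 3.11.15, numpy 2.4.6, scipy 1.17.1 and pandas 2.3.3.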

Additional observations from a re-analysis of the deposited data

Results flagged for a closer look

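Adult barcodes outside the cell filter, which were in no main comparison, carried both members while the newborn library held 0 PAEP UMIs. In these 1206 barcodes PAEP stood at 31057 CPM (30727 to 31390) and GLYCAM1 at 8038 CPM (7871 to 8208). Per barcode they held a median of 18 PAEP and 5 GLYCAM1 UMIs of 641 UMIs in all, close to the counts in kept non-epithelial barcodes (17 and 4). PAEP was 30.2 (29.8 to 30.5) and GLYCAM1 7.81 (7.64 to 7.98) per 100 casein UMIs. Most of them, 990, had under 300 genes.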

How the results depend on the processing

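Of 70 recomputed values, 34 stayed within the counting interval of the main value, or within 1.5 times for counts of genes, 34 left it and 2 reversed; 11 differed by more than 1.5 times. In secretory-gated barcodes PAEP stood at 148758 CPM with other lineage lists at 0 UMIs, where 57 barcodes were left, at 119804 after Scrublet removal, 107886 and 133567 with 5 and 20 UMIs of the secretory list, 277143 scaled to UMIs outside the milk genes, 104406 with equal weight per barcode and 129493 with the BTN1A1 and XDH gate. GLYCAM1 stood at 40625, 36159, 32461, 40186, 83474, 30912 and 39081 CPM under the same settings. Per 100 casein UMIs in the gate, PAEP stood at 26.6 with other lists at 0 UMIs, 27.6 with 20 UMIs of the secretory list, 25.6 with equal weights and 27.4 with the BTN1A1 and XDH gate, and GLYCAM1 at 7.26 with other lists at 0 UMIs and 7.74 with equal weights. In non-epithelial barcodes PAEP stood at 33.9 with other lists at 0 UMIs, 32.7 after Scrublet removal and 35.3 with equal weights, and GLYCAM1 at 9.76 with equal weights. PAEP per casein was higher outside the epithelium than in the secretory gate in all of these. The class folds were also taken, after the data had been seen, scaled to UMIs outside the milk genes and without barcodes of at least 1000 casein UMIs in the classes other than the secretory gate. Secretory over low-secretory, PAEP was 46.5-fold and 59.0-fold and GLYCAM1 46.7-fold and 62.8-fold; over non-epithelial, PAEP was 58.4-fold and 26.4-fold and GLYCAM1 64.0-fold and 28.8-fold. Low-secretory over non-epithelial, PAEP was 1.26-fold with the first and turned to 0.448 with the second, and GLYCAM1 turned to 0.460. These are ratios of CPM between classes of unlike depth. Of the other whey genes, 0 were 4-fold lower in the secretory gate than in low-secretory barcodes with the first. The causes were not tested, apart from fewer barcodes and other denominators by construction. The stage ratios stayed within their intervals; that of GLYCAM1 rests on 17 to 20 newborn UMIs. No paired analysis was possible because each stage has 1 library. Depth limits the newborn comparison, where PAEP up to 0.0458 CPM would not be seen.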

Other observations

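Mast cell-like barcodes of the adult library held fewer PAEP UMIs than other non-epithelial classes and a like number of GLYCAM1 UMIs. Their 386 barcodes had a median of 11 PAEP UMIs (5th to 95th percentile 4 to 24), the lowest of the 7 classes, and 4 GLYCAM1 UMIs, at a median depth of 2148 UMIs. T or NK cell-like barcodes had medians of 16 and 4 at 2835 UMIs. GLYCAM1 per 100 PAEP UMIs was 34.8 (32.9 to 36.8) in mast cell-like, 26.6 (26.3 to 27.0) in T or NK cell-like, 25.6 (24.5 to 26.9) in neutrophil-like and 30.1 in secretory-gated barcodes. The median of CSN2 was 14 UMIs in mast cell-like barcodes and 17 in T or NK cell-like ones.

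Between the stages, 13 of 20 measured genes of the other whey list passed 4-fold towards the adult, where 16.2% of all genes did. Towards the newborn 3 of the 20 passed, where 8.48% of all genes did. LTF had 2 newborn UMIs against 238973, WFDC2, a protease inhibitor of epithelia, 1 against 45967, and LCN2 9 against 91184. The 3 that were higher in the newborn were SAA3, an acute phase protein, at 4211 against 529 CPM, CST3, which encodes cystatin C, at 3109 against 621 CPM, and RNASE4, a secreted ribonuclease, at 1046 against 189 CPM.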
